A study of Homo sapiens with 3 samples.

Results

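Of 14365 codanin-1 peaks called by the authors in K562 cells, a human erythroleukaemia line, 948 shared at least 1 bp with a GATA1 peak. The 515 peaks described here are those that remained after chromosomes Y and M were set aside together with peaks whose midpoint fell in 5 crowded regions, 22:18-24 Mb, 9:133-134 Mb, 1:16-17 Mb, 4:49-50 Mb and 7:155-156 Mb (hg19). They are called shared peaks below. They were chosen by overlap with GATA1, so the overlap is the selection and not a result. Their share of the 12940 codanin-1 peaks outside those regions was 3.98%. From the GATA1 list, 530 of 3904 peaks (13.6%) were their partners, and 0 partners lay in the regions set aside. Although they come from what the selection treats as ordinary sequence, 130 of the 515 (25.2%) stood in 12 tight runs, so they are named here by the overlap rule alone.

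The study made 3 chromatin immunoprecipitation libraries from K562 cells, 1 for each antibody: Cod1, raised against residues 123 to 142 of codanin-1, an antibody against GATA1 (N6), and IgG. All 3 used the same number of K562 cells and were fixed for 10 minutes in 1% formaldehyde. Peak lists of Cod1 and GATA1 were used; the IgG library was not analysed here. With 1 library per antibody there is no replicate error, the sequencing depth is unknown, and no p-value is given; intervals are 95% exact binomial ones for counting error only, and neighbouring peaks are not independent.

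Codanin-1 is the protein mutated in most cases of congenital dyserythropoietic anaemia type I, in which erythroblasts have a spongy heterochromatin and bridges between nuclei. It binds the histone chaperone ASF1, which delivers histones H3 and H4 for nucleosome assembly. GATA1 is a zinc finger factor that binds GATA motifs and directs red cell gene expression. K562 cells express GATA1 and have long served as a model of the erythroid lineage. No annotation or genome sequence of hg19 was used, so positions are given with their cytogenetic band and not with a gene, and no peak was tested for a GATA motif.

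The shared peaks were unevenly spread over the chromosomes. Chromosome 22 had the highest share, with 15 of 115 codanin-1 peaks shared (13.0%, interval 7.49 to 20.6), and 10 of those 15 lay within 1 Mb of the region set aside on that chromosome. It was followed by chromosome 4 (38 of 352, 10.8%, 7.75 to 14.5) and chromosome 9 (40 of 389, 10.3%, 7.45 to 13.7). The lowest shares were on chromosome 6 (19 of 1077, 1.76%, 1.07 to 2.74), chromosome 15 (7 of 392, 1.79%, 0.721 to 3.64) and chromosome 3 (11 of 613, 1.79%, 0.899 to 3.19). The intervals of the first 3 chromosomes overlap one another, as do those of the last 3, while the intervals of the 2 groups lie apart. On chromosome 4, however, 24 of the 38 came from 1 run of 34.7 kb that held 25 codanin-1 peaks. On chromosome 9, 9 of the 40 lay within 1 Mb of the region set aside there. The intervals treat peaks of a run as independent, so they do not show a difference along whole chromosomes. Chromosome 1 held the most shared peaks, 82, which was 15.9% of them against 19.0% of all codanin-1 peaks counted. Per unit of length, chromosome 21 was densest, with 0.727 shared peaks per Mb (35 of 384 codanin-1 peaks, 9.11%), and 22 of the 35 were on its short arm. Chromosome 13 was sparsest, with 0.0174 per Mb, but it had few codanin-1 peaks. There 2 of 79 were shared (2.53%, 0.308 to 8.85), an interval that holds the 3.98% over all chromosomes.

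**Figure D1:**
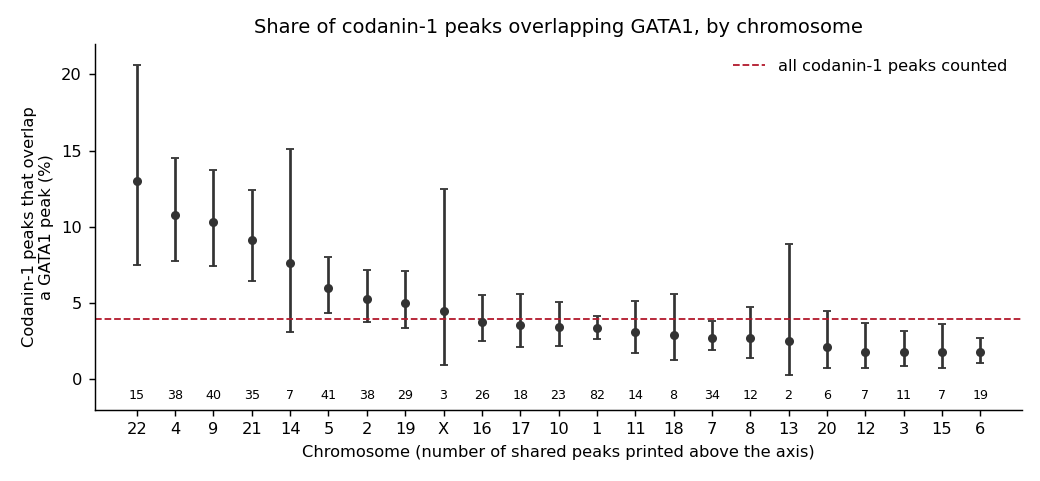
Percentage of codanin-1 peaks that overlap a GATA1 peak on each chromosome (x axis, ordered by share), with 95% exact binomial intervals as bars; the dashed line is 3.98%, the share over all chromosomes. Chromosomes 22, 4, 9, 21 and 5 lie above the line with their whole interval, and chromosome 6 is the lowest at 1.76%.

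Shared peaks had shared peaks as neighbours. Of the 515, 230 (44.7%, interval 40.3 to 49.1) had another shared peak with its midpoint within 10 kb, and the median distance to the next one was 22.4 kb. This share rested in part on the runs and on peaks of lower fold, for it was 26.0% without the runs of 5 or more and 4.48% among peaks of at least 4-fold in both lists. Counting any codanin-1 peak as a neighbour, 348 shared peaks (67.6%) had 1 within 10 kb, against 30.7% of all codanin-1 peaks outside the regions set aside and 3628 of the 12425 that were not shared (29.2%). The median distance to the next codanin-1 peak was 3.01 kb for shared peaks and 26.1 kb for the others. Of the codanin-1 neighbours found within 10 kb of shared peaks, 73.9% were themselves shared (1112 of 1504), and of those found around the other peaks 7.08% were. Each neighbour of each peak was counted, so the long runs weigh most in the first value. That value was not computed without the runs and is not that of a typical shared peak. A wide GATA1 peak can overlap several codanin-1 peaks. This was so for 20 partners, and the most on 1 partner was 4.

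At the other extreme, 99 shared peaks (19.2%) had no other shared peak within 1 Mb, and these lay on all 23 chromosomes counted. The remaining 286 stood between the solitary peaks and the runs. In windows of 1 Mb, 215 held a shared peak and 129 of these held exactly 1. The 5 fullest windows held 86 shared peaks (16.7%): the window of chromosome 1 from 228000001 to 229000000 held 23, that of chromosome 16 from 33000001 held 17, that of chromosome 4 from 190000001 held 16, and those of chromosome 2 from 133000001 and chromosome 10 from 135000001 held 15 each.

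The run with the most shared peaks, each midpoint following the last within 10 kb, was in band 4q35.2. There 24 of 25 codanin-1 peaks between 190978992 and 191013706 were shared, and all 20 GATA1 peaks in the same 34.7 kb were partners. Its codanin-1 fold enrichments, the authors' ratio of the library over the background of the peak caller, ran from 2.39 to 4.61 with a median of 3.10. Those of GATA1, taken over its pairs, ran from 3.50 to 4.55 with a median of 3.97. The distal end of 4q carries the D4Z4 macrosatellite, a tandem repeat whose shortening is known for its part in facioscapulohumeral dystrophy, and a near copy lies at the end of 10q.

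In band 10q26.3 a run of 15 shared peaks spanned 135470621 to 135501405. It took in 15 of 17 codanin-1 and 16 of 18 GATA1 peaks there, and the median codanin-1 fold was 3.15, close to that of the 4q run. A regular step was seen in the 4q run. Sorting the distances between midpoints into 33 classes of 200 bp from 400 to 7000 bp, the class from 3200 to 3400 bp was the fullest for shared peaks on 4q, with 13 pairs against a median of 2.00 per class. For GATA1 peaks it held 8 pairs on 4q, where the class from 6400 bp held as many, and 8 on 10q, where it was the fullest. Shared codanin-1 peaks on 10q did not show it: that class held 1 pair and the fullest, from 1200 bp, held 4.

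A run in band 1q42.13 was fully shared. All 23 codanin-1 peaks between 228744148 and 228781120 overlapped a GATA1 peak, and 17 of the 24 GATA1 peaks there were partners. The GATA1 peak was the wider one in 23 of its 24 pairs. Codanin-1 folds kept within 2.63 to 3.39 (median 2.96) and GATA1 folds within 3.53 to 4.17 (median 3.74). Band 1q42.13 is known for the tandem array of 5S ribosomal RNA genes. No single step stood out for the shared peaks, since the classes from 800, 1200 and 5600 bp held 6 pairs each against a median of 3.

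The runs in bands 2q21.2 and 16p11.2 had the lowest enrichments of the 12. On chromosome 2 all 15 codanin-1 peaks from 133011998 to 133045995 were shared, and the median codanin-1 fold was 2.05, beside 3.29 over the GATA1 side of the pairs. The significance there was nonetheless high, with a median −log10 q of 2.80 against 1.79 over all shared peaks. On chromosome 16 all 11 codanin-1 peaks from 33936907 to 33966032 were shared, and the median codanin-1 fold was 2.04, beside 3.50 over the GATA1 side of the pairs. Its shared peaks lay a median of 0.647 Mb from the centromeric bands.

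Band 19q13.12, in a region of the chromosome known for clustered zinc finger genes, held a pair of runs. The first had 10 of 11 codanin-1 peaks shared from 36762013 to 36786183 (median codanin-1 fold 3.45), and the second 6 of 9 from 37765677 to 37794358 (3.59). The other runs had 5 or 6 shared peaks. They lay on the short arm of chromosome 5 in bands p14.3 (21481788 to 21497276), p15.1 (17582547 to 17599485) and p13.2 (34179767 to 34191516), in 1p36.32 (2612783 to 2628578) and in 9p11.2 (44875184 to 44880105). Their median codanin-1 folds lay between 2.50 on 9p and 3.66 in 5p14.3.

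**Figure D2:**
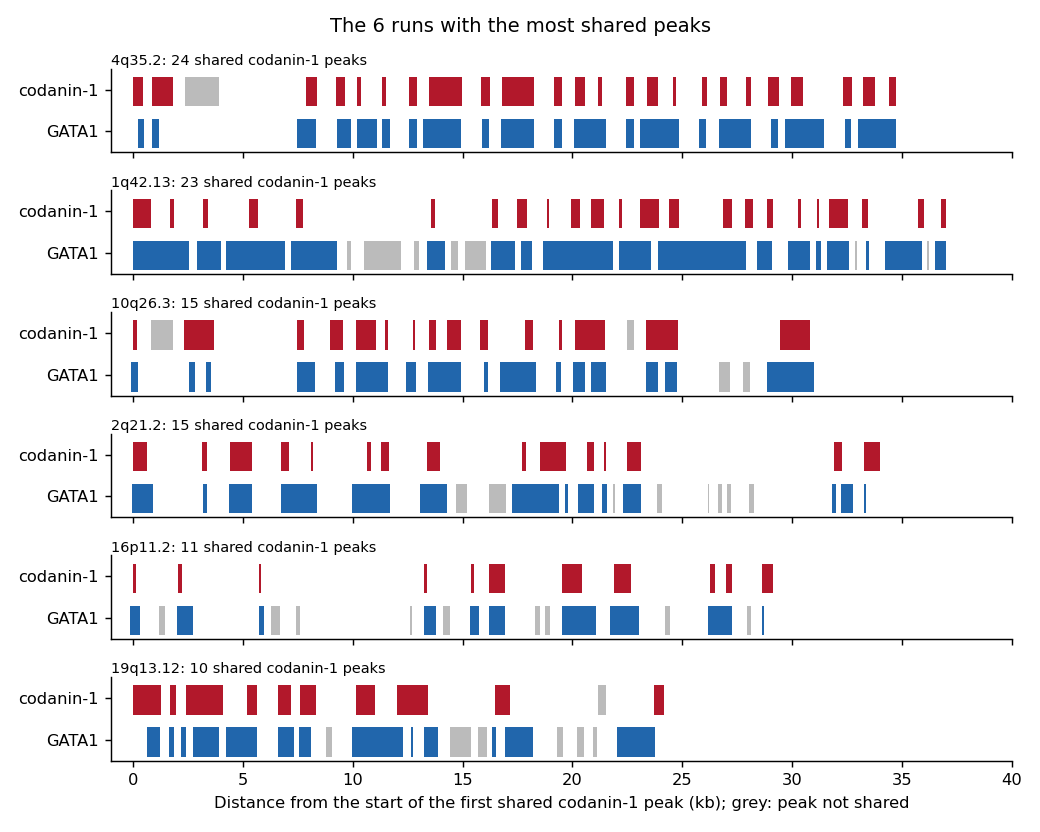
Codanin-1 peaks (upper row of each panel) and GATA1 peaks (lower row) in the 6 runs with the most shared peaks, drawn to scale against the distance in kb from the first shared peak; coloured peaks overlap a peak of the other list and grey ones do not. The runs in 1q42.13, 2q21.2 and 16p11.2 hold no grey codanin-1 peak.

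The ends of chromosomes held 72 shared peaks within 1 Mb (14.0%, interval 11.1 to 17.3), against 4.08% of all codanin-1 peaks counted. Among codanin-1 peaks that were not shared the figure was 456 of 12425 (3.67%, 3.35 to 4.02), and among GATA1 peaks that were not shared it was 292 of 3374 (8.65%, 7.73 to 9.65). This concentration rested largely on the ends of 4q, with 28 shared peaks, and 10q, with 15. Without those arms 29 of 464 shared peaks (6.25%) and 3.73% of the other codanin-1 peaks were within 1 Mb of an end. Without the runs of 5 or more the share of shared peaks was 8.57%, and without the 10 fullest windows 7.75%. Next came the end of 7q with 5 of 38 codanin-1 peaks shared, and the ends of 5p and 6q with 4 each.

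Read as a rate, 13.6% of codanin-1 peaks in the last 1 Mb of a chromosome were shared, 5.75% of those between 1 and 2 Mb, 3.60% between 2 and 5 Mb, 2.94% between 5 and 10 Mb and 3.56% farther in. Only the interval of the outermost class (10.8 to 16.9) lay apart from all the others, and this rested on 4q and 10q. Without those arms 29 of 468 codanin-1 peaks in the last 1 Mb were shared (6.20%, 4.19 to 8.78). That interval meets the one between 1 and 2 Mb over all arms (3.75 to 8.37). Within 1 Mb the excess over GATA1 peaks that were not shared (8.65% over all arms) also rested on those arms and the runs. The shared peaks were at 6.25% without 4q and 10q and at 8.57% without the runs. Within 5 Mb of an end lay 25.8% of shared peaks (22.1 to 29.8) and 29.3% of those GATA1 peaks (27.8 to 30.9), with overlapping intervals. The 3 shared peaks nearest an end were all in 10q26.3, at 34.0, 40.1 and 43.3 kb from it. The nearest of these, at 135500071 to 135501405, had a codanin-1 fold of 1.77 and lay wholly inside a GATA1 peak of 2.51-fold.

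Centromeres gave a second concentration. Within 1 Mb of the centromeric bands, or inside them, lay 68 shared peaks (13.2%, 10.4 to 16.4), against 3.22% of all codanin-1 peaks counted and 349 of the 12425 that were not shared (2.81%, 2.53 to 3.11). For GATA1 peaks that were not shared it was 342 of 3374 (10.1%, 9.14 to 11.2), an interval that meets that of the shared peaks. Inside the bands themselves were 24 shared peaks (4.66%), beside 1.15% of other codanin-1 and 5.01% of other GATA1 peaks. By these shares the shared peaks lay nearer to the rest of the GATA1 list than to the rest of the codanin-1 list. Each shared peak lies on a GATA1 peak by the rule, so this likeness is partly built into the selection.

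The largest numbers near centromeres were on 21p (14 of 34 codanin-1 peaks shared), 16p (11 of 18) and 2p (11 of 44). Next came 22q (9 of 46), where 8 shared peaks lay in the 1 Mb window that adjoins the region set aside. With 21p, 16p, 2p and 22q left out, 23 of 436 shared peaks (5.28%) remained within 1 Mb, beside 2.16% of the others. Among peaks of at least 4-fold in both lists 7.46% of shared peaks lay there. Of those outside the bands, the nearest were a pair in 11p11.12, at 51588899 to 51589068 and 51586852 to 51587031, whose codanin-1 folds were 1.36 and 1.38 and whose partners had 2.09 and 2.03. Between them in distance came the peak in 22q11.21 at 17911024 to 17911209, 11.1 kb from the band, with a codanin-1 fold of 6.24 and a partner of 4.72-fold. It also lay in the 22q window that adjoins the region set aside. The lowest and the highest codanin-1 fold of all shared peaks therefore stood at nearly the same distance from a centromere.

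**Figure D3:**
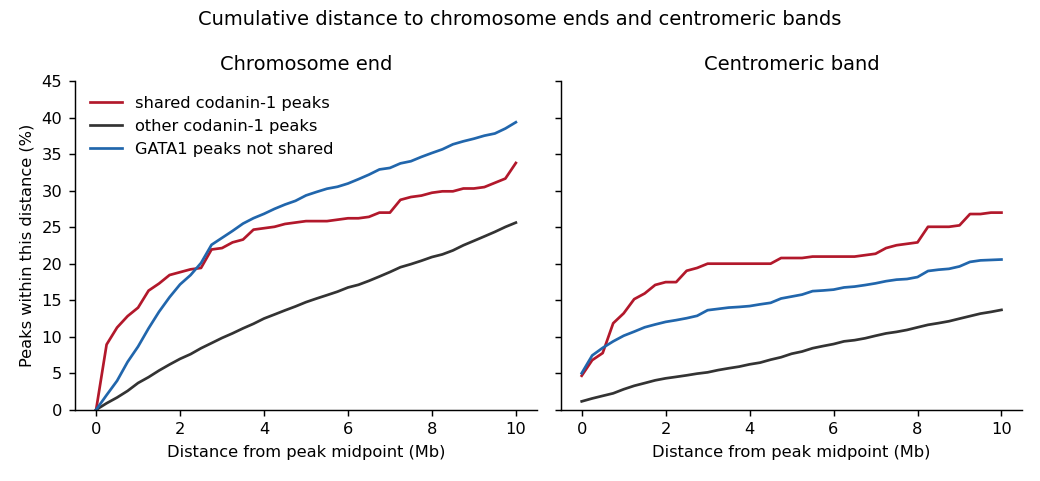
Cumulative percentage of peaks (y axis) with a midpoint within a given distance in Mb (x axis) of a chromosome end (left) or the centromeric bands (right), for shared codanin-1 peaks, other codanin-1 peaks and GATA1 peaks that are not shared. At 1 Mb the shared peaks reach 14.0% on the left and 13.2% on the right, and the other codanin-1 peaks 3.67% and 2.81%.

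Light Giemsa bands, which are gene-rich and replicate early, held 317 shared peaks, or 61.6% (57.2 to 65.8), near the 63.7% of all codanin-1 peaks counted and above the 42.4% of chromosome length that these bands make up. The palest of the stained bands (gpos25) held 19.4% of shared peaks beside 12.9% of the other codanin-1 peaks. The variable heterochromatic bands (gvar), which flank some centromeres, held 21 shared peaks, or 4.08% beside 0.443%. There 21 of 76 codanin-1 peaks were shared. The short arm of chromosome 21 alone held 22 shared peaks, 14 of them in the 1 Mb window of 21p11.2 from 9000001. The gvar share may therefore rest largely on 1 arm. It was not computed without that arm and is not shown to hold for gvar bands in general. Stained bands of the middle classes were less used: gpos50 bands held 5.44% beside 12.5% and gpos75 bands 1.94% beside 5.70%. GATA1 peaks that were not shared had similar low values there, 6.08% and 2.73%, so this was not particular to shared peaks. In gpos25 and gvar bands those GATA1 peaks had 14.0% and 1.19%, below the shared peaks. Neither share of the shared peaks was computed without the runs, which weigh on the bands: the light-band share was 67.0% without them. The 2 shares are therefore not shown to be those of a typical shared peak. The solitary shared peaks were in light bands in 64 of 99 cases and those in runs in 59 of 130.

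Low fold enrichment went with sharing. A codanin-1 fold under 3 was found in 125 shared peaks (24.3%, 20.6 to 28.2), against 1.34% of all codanin-1 peaks counted and 49 of the 12425 that were not shared (0.394%, 0.292 to 0.521). Put the other way, 71.8% of codanin-1 peaks under 3-fold were shared, and 36 of the 38 under 2-fold. From 3 to 4-fold 3.86% were shared, from 4 to 5-fold 2.12%, and at 5-fold or more 3.47% (23 of 662). The GATA1 list did not have this gradient, for 35 of its peaks under 3-fold were partners and 184 were not, and the share of partners was 26.2% from 3 to 4-fold, 10.3% from 4 to 5 and 15.5% at 5 or more.

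Low folds were most common in the runs, where 59 of 130 shared peaks were under 3-fold (45.4%, 36.6 to 54.3). Among the solitary ones 17 of 99 were (17.2%, 10.3 to 26.1). Median codanin-1 folds were 3.07 in runs, 3.74 in the intermediate peaks and 3.99 in the solitary ones, the last near the 4.01 of codanin-1 peaks that were not shared. Position near an end or a centromere made less difference, with 27.1% under 3-fold within 1 Mb of either and 23.2% elsewhere, and overlapping intervals.

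Significance ran opposite to fold. Of codanin-1 peaks with a −log10 q of 1 to 1.5, 2.86% were shared, and the share went through 3.56%, 5.35% and 13.9% to 8 of 21 (38.1%) at 5 or more. Width went the same way as significance, from 14 of 2349 peaks (0.596%) at the minimum width of 101 bp to 88 of 196 (44.9%) at 800 bp or more. A wide peak meets another more easily, so the link with width is partly built into the rule. The median width was 371 bp for shared peaks and 205 bp for the others.

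The 2 folds of a pair went together. Over the 555 pairs that the 515 shared peaks and 530 partners formed, Pearson's r between the codanin-1 and the GATA1 fold was 0.72 and Spearman's rank correlation 0.67. In the runs these were 0.67 and 0.59, in the intermediate pairs 0.67 and 0.57, and in the solitary ones 0.77 and 0.67. Over all pairs Spearman's correlation was lower for −log10 q (0.34) and for width (0.19). Pairs are not independent, and both peaks of a pair share the local sequence, copy number and mappability, none of which was measured here. Of the 137 pairs with a codanin-1 fold under 3, 38 also had a GATA1 fold under 3, and there was no pair in which GATA1 alone was under 3. The GATA1 folds were higher in general, with a median of 4.12 for partners against 3.62 for shared peaks. The same limit therefore does not mean the same in both lists. At the upper end, 11 pairs had 5-fold or more in both lists, and none of these was in a run.

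**Figure D4:**
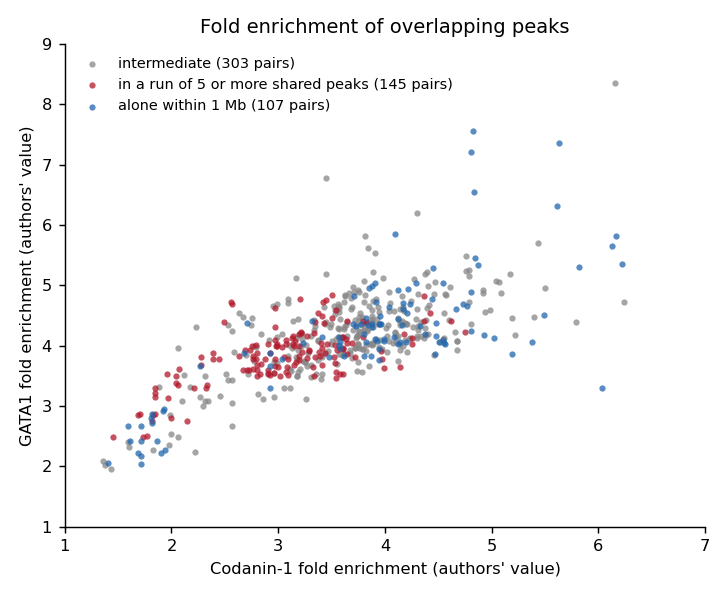
Fold enrichment deposited by the authors for the codanin-1 peak (x axis) and the GATA1 peak (y axis) of each of 555 overlapping pairs, coloured by whether the shared peak stood in a run, alone or between. Of the 11 pairs with 5-fold or more on both axes, 6 were solitary, 5 intermediate and none in a run.

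The 5 sites with the strongest enrichment in both lists lay outside the runs, and their GATA1 peaks were 60 to 201 bp wide. By the sum of ranks of the 2 folds, the first was in 14q32.33 at 104619851 to 104619966, where codanin-1 had 6.15-fold and GATA1 8.35-fold, and the GATA1 peak of 65 bp lay inside the codanin-1 peak of 116 bp. The second, in 1p12 at 118861523 to 118861901, had 5.63-fold and 7.36-fold. A site in 12q21.31 at 85009705 to 85010052 had 6.16-fold and 5.81-fold. A further site on that arm, in 12q24.32 at 127965317 to 127965423, had 5.61-fold and 6.31-fold, with midpoints 0.5 bp apart. In 5p13.3, at 32856033 to 32856314, the folds were 6.12 and 5.65. All but the first of these 5 had no other shared peak within 1 Mb.

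Sites significant in both lists were different ones, and of lower fold. Ordered by the lower of the 2 −log10 q values, the first was in 7q22.1 at 100550732 to 100551204, with 7.74 for codanin-1 and 10.42 for GATA1 at folds of 3.09 and 3.83. In 21p11.2, at 9694953 to 9696073, the −log10 q was 6.44 and 6.94 at folds of 2.56 and 4.25. The site in 17q21.32 at 45266539 to 45266652 had 5.90 and 11.00. That in Xq22.3 at 108297653 to 108297846 had 5.85 and 8.61, at folds of only 1.86 and 2.42. The fifth, in the 2q21.2 run at 133043911 to 133044271, had 4.91 and 7.68. None of these sites was among the 5 with the highest folds.

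Nesting of one peak in the other was found in 281 of 555 pairs (50.6%, 46.4 to 54.9). The GATA1 peak lay wholly inside the codanin-1 peak in 176 pairs (31.7%) and the codanin-1 peak inside the GATA1 peak in 105 (18.9%). The other 274 were staggered, and 0 pairs had equal bounds. Codanin-1 peaks were wider than their partner in 61.4% of pairs, so width alone favours the first direction. When the wider peak was at least 2 times as wide as the other, 123 of 204 pairs were nested for the wider codanin-1 peaks; for GATA1 peaks over 2 times as wide, 65 of 97 were. At more equal widths 38.7% were nested when codanin-1 was wider and 34.2% when GATA1 was.

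Over all pairs in runs the codanin-1 peak was the inner one in 57 of 145 pairs (39.3%, 31.3 to 47.8) and the GATA1 peak in 28 (19.3%, 13.2 to 26.7). The runs differed among themselves. Codanin-1 was the inner peak in 17 of 24 pairs in 1q42.13 and in all 5 in 1p36.32, while in 5p14.3 GATA1 was the inner one in 5 of 6 and codanin-1 in 0. In the 2 runs of 19q13.12 codanin-1 was inner in 1 of 16 and 0 of 8 pairs, and GATA1 in 3 of each. Among solitary peaks GATA1 was the inner one in 48 of 107 pairs (44.9%, 35.2 to 54.8) and codanin-1 in 5 (4.67%, 1.53 to 10.6). The intermediate pairs lay between, with 33.0% and 14.2%. Codanin-1 peaks inside a GATA1 peak had a median fold of 2.97, and those that held a GATA1 peak had 3.79. The GATA1 peaks that enclosed a codanin-1 peak in runs had a median width of 1463 bp, and those enclosed in solitary pairs 146 bp.

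Midpoints lay a median of 136 bp apart (quartiles 41.0 and 326 bp), with no preferred side. The GATA1 midpoint was at the higher coordinate in 272 pairs and at the lower in 283, and the median signed offset was -3.00 bp. In 148 pairs (26.7%) the midpoints were within 50 bp, and in 229 (41.3%) within 100 bp. The offset cannot exceed the mean of the 2 widths if the peaks are to overlap. Its median was 0.377 of that limit, and 62.3% of pairs were under 0.5 of it. Solitary pairs were closest, with a median of 69.5 bp and 57.0% within 100 bp, and pairs in runs were farthest, with 240 bp and 28.3%. As a share of the largest possible offset the classes were closer together, with medians of 0.322 in solitary, 0.390 in intermediate and 0.400 in run pairs.

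The smallest offset was 0.5 bp, which occurred at the 12q24.32 site above and also at 58251295 to 58251467 in 6p11.2 and at 158248202 to 158248484 in 6q25.3. In each of the 3 the GATA1 peak was the inner one. The largest offset, 2383.5 bp, came from the 1q42.13 run, where a GATA1 peak of 4006 bp touched a codanin-1 peak at its edge by 62 bp.

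**Figure D5:**
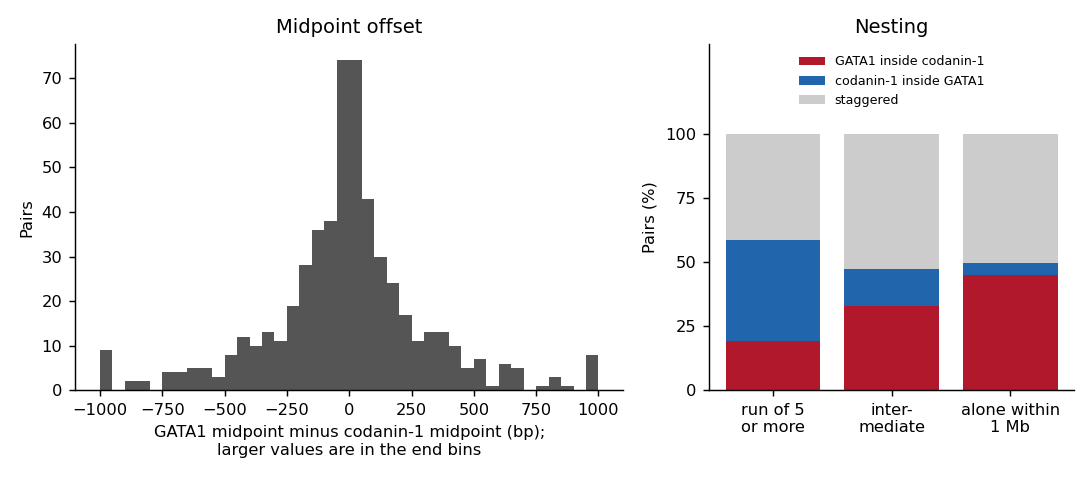
Left, number of pairs (y axis) by the signed distance in bp from the codanin-1 to the GATA1 midpoint (x axis, bins of 50 bp, values beyond 1000 bp placed in the end bins). Right, percentage of pairs in each kind of nesting for shared peaks in runs, between and alone; codanin-1 is the inner peak in 39.3% of pairs in runs and 4.67% of solitary ones.

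The overlap itself had a median of 171 bp and covered a median of 52.2% of the codanin-1 peak and 74.6% of the GATA1 peak. The longest, 2142 bp, was in 21p11.2, where the codanin-1 peak at 9698600 to 9700741 lay inside a GATA1 peak, with folds of 2.34 and 3.09. The next, of 2102 bp, was in 18p11.32, where the codanin-1 peak at 106757 to 111324, the widest of all shared peaks at 4568 bp, overlapped 3 GATA1 peaks, 2 of them wholly inside it, at a fold of 1.72. The third, of 2025 bp, was again in 21p11.2, at 9825462 to 9827486 (1.60-fold and 2.32-fold). The other 2 of the first 5, of 1469 and 1431 bp, belonged to the 4q35.2 run. All 5 had a codanin-1 fold under 3.

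Most shared peaks, 481, had 1 partner, 28 had 2 and 6 had 3. Those with 3 were the 18p11.32 peak, 36774036 to 36775427 in the 19q13.12 run, 162137679 to 162139122 in 2q24.2, 9694953 to 9696073 in 21p11.2, 157731425 to 157733238 in 6q25.3 and 100642225 to 100643280 in 7q22.1. All 6 were over 1000 bp wide. In 6q25.3 the 3 GATA1 peaks, of 495, 148 and 258 bp, all lay inside the codanin-1 peak, with folds of 3.68, 3.48 and 4.16.

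Just inside the 1 bp limit were the peaks at 3746402 to 3746502 in 16p13.3 and 37765677 to 37766251 in 19q13.12, with 1 bp shared, and 161431669 to 161431934 in 1q23.3, with 2 bp. Their codanin-1 folds were 3.88, 4.25 and 2.53. Just outside were 190907241 to 190907601 in 4q35.2, 4 bp from a GATA1 peak, 1311746 to 1311846 in 7p22.3, 6 bp away, and 143184859 to 143185260 in 1q21.1, 10 bp away. Their folds were 3.66, 3.45 and 3.74. In all 10 pairs overlapped by under 10 bp, and 45 codanin-1 peaks that were not shared lay under 100 bp from a GATA1 peak. A further 234 lay 100 bp to 1 kb away and 1221 lay 1 to 10 kb away. Median fold went from 3.88 in the nearest class to 4.04 in the 1952 peaks over 1 Mb from any GATA1 peak, and median width from 306 to 163 bp.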

How the data were processed

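Peaks were deposited by the authors for the Cod1 and GATA1 libraries in the 9-column broad peak layout without a header. BWA, MACS2 and the build hg19 are recorded per the submitters' processing notes. No source used here states their versions, the background library, thresholds, pooling or any filter on repeats. Fold enrichment (a ratio), −log10 p (p-value) and −log10 q (q-value) are the authors' deposited values. The deposited score is the whole part of 10 times −log10 q and was not used further. Depth is unknown, so folds are comparable only within a list. Where the same fold limit was set in both lists, it need not mark the same enrichment.

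Overlap was computed on the file coordinates (printed from 1). Band positions and chromosome lengths of hg19 came from circlize 0.4.16, with lengths equal to those in GenomeInfoDb 1.38.1. Distances run from midpoints. Runs are shared peaks spaced by 10 kb or less, 5 or more together. The measures were tested on simulated data (240 of 240 planted pairs recovered). Python 3.11.15, numpy 2.4.6, pandas 2.3.3 and scipy 1.17.1 were used. Named sites follow a rule by rank (folds, q, overlap, distance, partners); as 24 peaks lay inside centromeric bands, the nearest outside were named. Largest and smallest offsets, and the runs, were chosen after values were seen. The shared peaks and all measures were chosen with earlier results of these data known. No test was made; the alternatives tried are given in the closing section.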

Additional observations from a re-analysis of the deposited data

How the results depend on the processing

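Leaving out the runs and leaving out the 10 fullest windows were chosen after seeing the data. The number of shared peaks stayed within 1.5 times 515 in 7 of 11 alternatives and was 177 when 0.5 of both peaks had to overlap, 794 for peaks within 1 kb, 136 at a −log10 q of at least 2 and 134 at a fold of at least 4 (both lists filtered). Their share of codanin-1 peaks, 3.98%, was 3.42% when 0.5 of the shorter peak had to overlap, and 1.37%, 6.14%, 4.70% and 2.09% in those 4. It was 3.55% with peaks within 1 kb merged, 3.13% without peaks within 1 Mb of an end or centromeric band, 3.01% without the runs and 2.95% without the windows. Leaving out the runs took away only their shared peaks, so that share could only fall. Leaving out the windows took away all codanin-1 peaks in them. Nesting (50.6%) was 60.7% by the shorter-peak rule, 24.8% within 1 kb (where peaks need not overlap), 59.4% at the q and 56.3% after merging. The median offset (136 bp) was 103, 29.0 and 460 bp by the 3 overlap rules, 103 at the q, 112 at the fold, 185 after merging, 114 without runs and 115 without the windows. Shared peaks with another within 10 kb (44.7%) were 31.6% by the rule on both peaks, 4.48% at a fold of at least 4, 32.0% after merging, 39.7% away from ends and centromeres, 26.0% without runs and 26.2% without the windows; the cause was not tested. Those within 1 Mb of an end (14.0%) were 19.9% at the q, 10.1% after merging, 8.57% without runs and 7.75% without the windows. Near centromeres (13.2%) the share was 10.3% at the q and 7.46% at the fold. Light bands (61.6%) held 55.9% at the q, 69.4% at the fold, 67.0% without runs and 67.9% without the windows. Widening the regions set aside by 1 Mb, or leaving out chromosomes 9 and 22, kept the count within 1.5 times and each other value within its 95% interval. The shares near ends and near centromeres have no value without peaks near either, by construction. No paired analysis was possible because there is a single library per antibody, and so none could be left out.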
